A study of Mus musculus with 10 samples.

Results

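The 46 genes described here encode proteins that copy DNA and carry a cell into S phase, the part of the cell cycle in which the genome is replicated. They were taken by name from a list, and no threshold on a measured value entered the rule. The list was, however, chosen with earlier results of these data known. Of its genes, 45 matched a gene symbol of the count table, and Pclaf was listed there under its older symbol 2810417H13Rik. All 46 of 46 were therefore found among the 21869 genes of the table, and all 46 passed the filter on low counts. The comparison asks whether messenger RNA of these genes differed between CD36-positive and CD36-negative cells of the mouse retina.

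RNA was sequenced from 5 CD36-positive libraries, numbered 1, 2, 3, 4 and 7, and from 5 CD36-negative libraries, numbered 1, 2, 4, 7 and 8. Both groups were wild type by title and came from dissociated retina by flow sorting of live CD11b-positive cells with an intermediate level of CD45, a gate that the labels call microglia; CD36, a scavenger receptor for fatty acids and oxidized lipids, divided the gate. In the treatment protocol, mice received sodium iodate at 20 mg/kg, which damages the pigment epithelium under the retina, or phosphate-buffered saline, and eyes were collected after 7 days. Which of these the 10 libraries had is not stated, nor whether retinas were pooled or which libraries came from separate animals, so the p-values below measure the spread between these libraries.

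Before S phase, the helicase made of the Mcm2 to Mcm7 proteins is loaded on origins of replication by Cdc6 and Cdt1, and this loading is called licensing. In S phase the helicase is switched on by Cdc45 and the GINS proteins. Primase starts the new strands, replicative polymerases tethered by the sliding clamp Pcna copy both strands, and several enzymes supply the deoxynucleotides. Many of these genes are targets of the E2F transcription factors, which act when a cell leaves G1, and microglia, the resident macrophages of the retina, are known to divide after retinal injury.

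Total counts ran from 5001692 in CD36-positive library 1 to 13250984 in CD36-positive library 7, and CD36-positive library 3 was the next shallowest at 6904523. A count above 0 was found for 13508 to 15059 genes per library. The sorted marker followed the labels, with Cd36 at 170 to 255 CPM (counts scaled to library size, with TMM to correct for composition) in the CD36-positive libraries, against 41.8 to 55.3 CPM in the CD36-negative ones. The 10 microglia markers were present in both groups, with summed levels of 8063 to 16979 CPM in CD36-positive libraries, against 7466 to 17211 CPM in CD36-negative ones, and 0 of 10 passed the edgeR test (1 at an unadjusted p under 0.05, 0 with DESeq2). Y-linked genes (Ddx3y, Eif2s3y and Kdm5d) stood at summed levels of 207 to 324 CPM in CD36-positive libraries 1, 2 and 3 and 184 to 206 CPM in CD36-negative libraries 1 and 2. The other libraries held 18.4 to 19.7 CPM (CD36-positive) and 23.7 to 57.6 CPM (CD36-negative) of them.

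Of the 46 genes, 7 were higher in CD36-positive cells and 0 were lower at an adjusted p under 0.05 of edgeR's quasi-likelihood test, and 39 did not pass. The 7 were Pclaf, Pcna, Rrm1, Tyms, Tk1, Gins2 and Rrm2, which is 15.2% of the genes, against a background of 2.61% of the 11596 genes tested that were called higher and 4.74% called lower. The log2 fold change was positive for 39 genes (84.8%) and negative for 7, whereas 51.2% of all genes tested had a positive one. Its median was 0.65 over the 46 genes and 0.017 over all genes tested, and 12 of the 46 genes had a value of at least 1. The DESeq2 Wald test called 9 higher (19.6%, against 4.6% of all genes tested) and 0 lower. With limma voom, 6 were higher (13%, against 2.85%) and 0 lower. At an unadjusted p under 0.05 of edgeR, 20 of the 46 genes were higher (43.5%, against 10.6% of all genes tested) and 1 was lower. In 4 genes, Pclaf, Gins1, Gins2 and E2f1, all 5 CD36-positive libraries lay above all 5 CD36-negative libraries, 8.7% of the genes beside 2.59% of all genes tested.

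**Figure D1:**
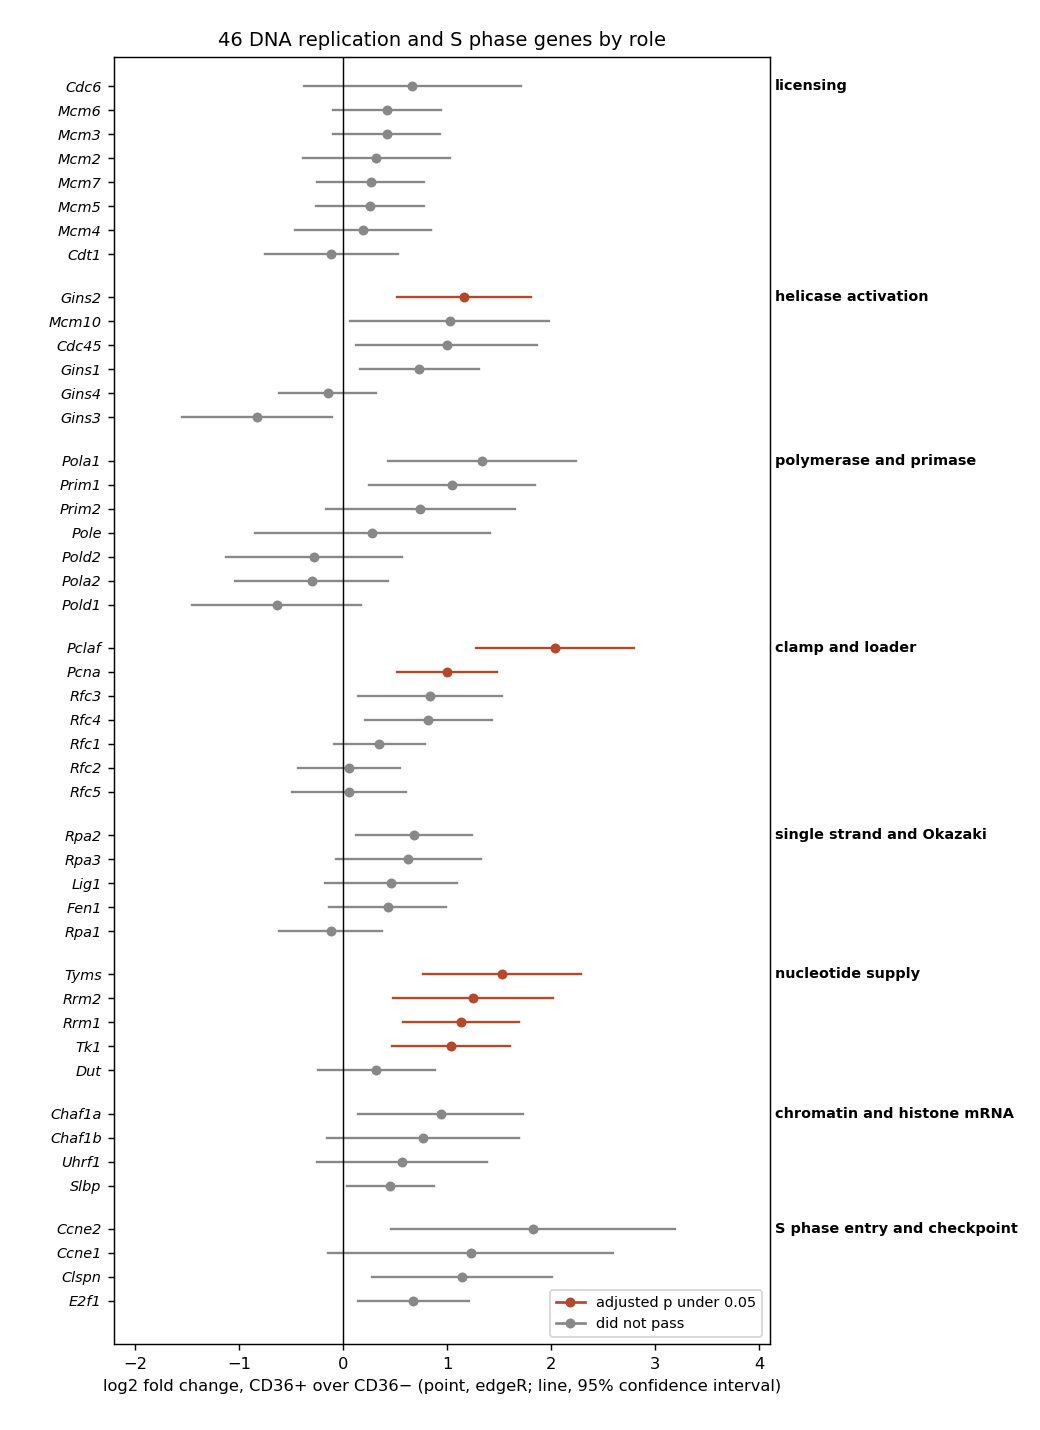
Log2 fold change of each of the 46 genes, CD36-positive over CD36-negative, by role; points are edgeR estimates from 5 libraries a group and lines their 95% confidence intervals, with the 7 genes past the test in red. The estimates run from -0.83 for Gins3 to 2.04 for Pclaf, and 4 of the 7 red points belong to nucleotide supply.

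The count of 7 depended on which libraries were in the fit, and so did the number of calls over all genes. Without CD36-positive libraries 1 and 3, the shallowest, 2 of the 46 genes were higher (4.35%, against 1.55% of all genes tested in that fit), Pclaf and Rfc3, which passed only there, and the median log2 fold change was 0.55. Without CD36-negative library 4 there were 3 (6.52%, against 1.12%), without CD36-positive library 3 there were 4 (8.7%, against 1.66%), and without CD36-negative library 8 also 4 (8.7%, against 1.67%). Without CD36-positive library 4 there were 12 (26.1%, against 2.87%). Within the libraries of high Y-linked level (3 CD36-positive, 2 CD36-negative) 2 genes were higher (4.35%, against 0.262%), with a median of 0.46. Within those of low level (2 CD36-positive, 3 CD36-negative) 1 was higher (2.17%, against 1.14%) and 1 lower, with a median of 0.43. With the Y-linked level as a term in the fit of all 10 libraries, 8 were higher (17.4%, against 3.84%), with a median of 0.60.

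The libraries differed more in these genes than the group means show. Summed over the 46 genes, CD36-positive libraries 1, 2, 3, 4 and 7 held 2243, 2944, 2649, 1423 and 2160 CPM, against 2038, 1441, 1283, 1400 and 1385 CPM in CD36-negative libraries 1, 2, 4, 7 and 8. The sum of CD36-positive library 4, at 9020744 total counts the third shallowest of the 10, lay within the CD36-negative range, below CD36-negative libraries 1 and 2. The other 4 CD36-positive libraries lay above all CD36-negative ones, of which library 1, at 11582819 total counts, was the highest. Each gene's log2 CPM was also expressed as its deviation from the mean of the CD36-negative libraries. The median of these deviations was 0.53, 1.05, 0.71, -0.06 and 0.59 in the CD36-positive libraries, against 0.50, -0.06, -0.22, -0.13 and -0.09 in the CD36-negative libraries, in the same orders, with a pooled SD within groups of 0.35. CD36-positive library 2, of 9300087 counts, had the highest level of all 10 libraries for 23 of the 46 genes, while the 2 shallowest libraries, 1 and 3, had it for 9 and 5. CD36-positive library 4 was the lowest of its group for 30 genes, and CD36-negative library 1 the highest of its group for 33. A further 12 genes had 4 of 5 CD36-positive libraries above every CD36-negative library, and in 11 of those 12 the exception was CD36-positive library 4. No share over all genes tested was worked out for these library ranks or for the 4 of 5 pattern. They cannot be called particular to the 46 genes.

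**Figure D2:**
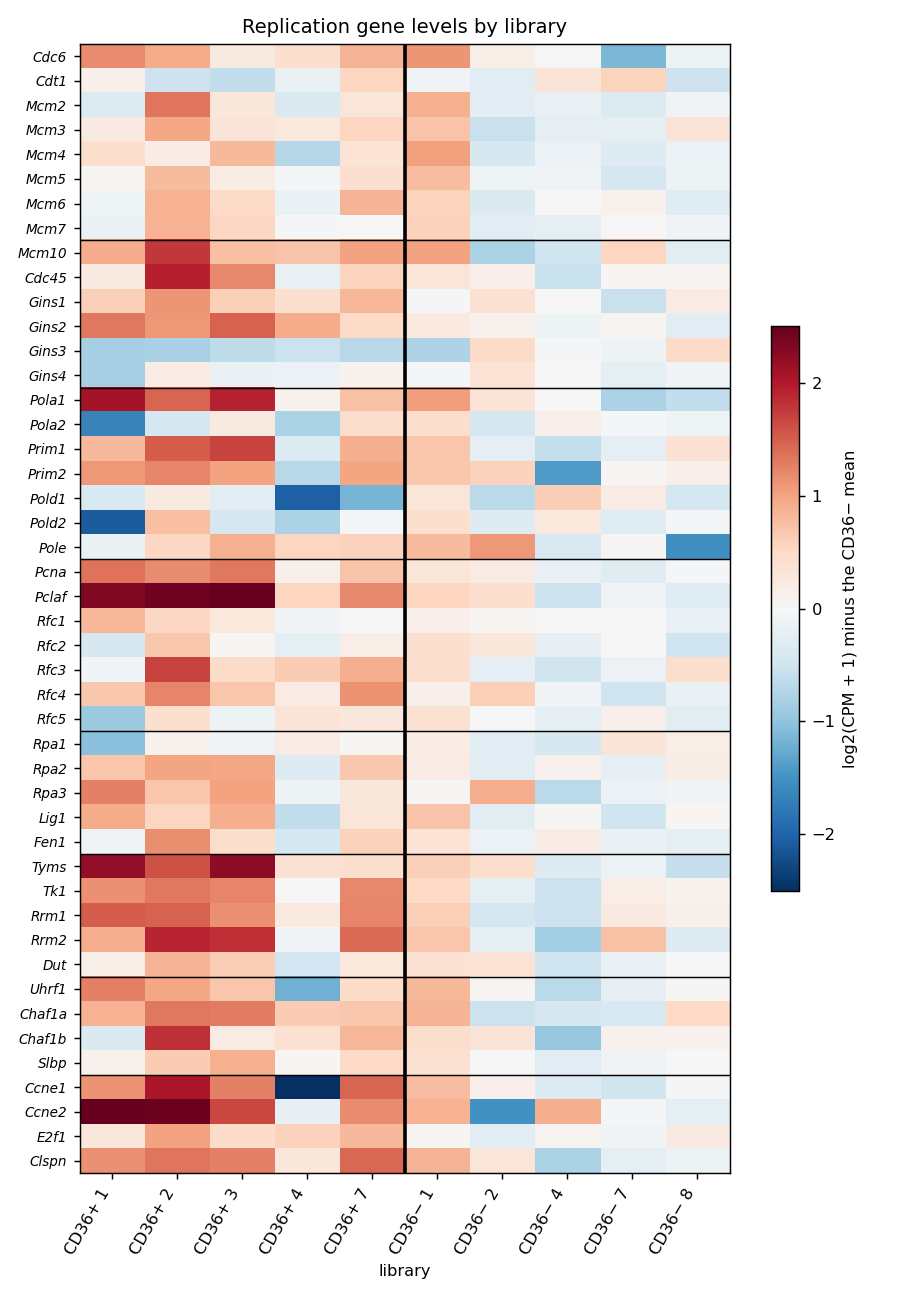
Level of each of the 46 genes in each library, as log2(CPM + 1) minus the mean of the CD36-negative libraries (colour; values past the ends of the bar take the end colour), with CD36-positive libraries left of the black line and genes in role blocks. CD36-positive library 4, the lowest of its group for 30 genes, is paler or bluer than its neighbours, and CD36-negative library 1, the highest of its group for 33, is redder than the other CD36-negative libraries.

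The promoters of the genes were searched for the E2F site, because many of these genes are textbook E2F targets. Promoter sequences were those of RefSeq on GRCm38.p6, from 250 bases before to 50 bases after the start, and 38 of the 46 genes matched by symbol, all but Mcm4, Gins1, Gins2, Gins4, Prim2, Pole, Rfc2 and Ccne2. The letters searched were TTTCCCGC, TTTCGCGC, TTTGCCGC and TTTGGCGC on both strands. A match stood in 14 of the 38 genes (36.8%), in 4.78% of the 8961 tested genes that have a promoter in the table, and in 2.26% of all 32851 promoters. Among the genes past the test, 6 have a promoter in the table and 1 of these, Pclaf, held a match. The median log2 fold change was 0.44 over the 14 genes with a match and 0.72 over the 24 without. Printed here, with matches in capitals, are the promoters of Pclaf (chr9:65890073-65890372, plus strand) and Rrm1 (chr7:102441445-102441744, plus strand), which had the smallest p of their roles among genes past the test. Mcm6 (chr1:128359656-128359955, minus strand) is added for contrast, since it held the most matches, 3, and did not pass. The match in Pclaf begins 5 bases before the start; those in Mcm6 begin 110, 106 and 47 bases before it, and the first 2 overlap. These 4 spellings do not occur in the Rrm1 window.
Pclaf: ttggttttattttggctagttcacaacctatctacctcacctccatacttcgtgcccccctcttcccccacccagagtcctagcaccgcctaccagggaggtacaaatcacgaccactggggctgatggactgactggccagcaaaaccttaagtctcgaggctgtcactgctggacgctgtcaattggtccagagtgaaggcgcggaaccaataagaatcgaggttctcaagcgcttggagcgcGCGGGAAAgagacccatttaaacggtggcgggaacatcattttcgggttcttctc
Rrm1: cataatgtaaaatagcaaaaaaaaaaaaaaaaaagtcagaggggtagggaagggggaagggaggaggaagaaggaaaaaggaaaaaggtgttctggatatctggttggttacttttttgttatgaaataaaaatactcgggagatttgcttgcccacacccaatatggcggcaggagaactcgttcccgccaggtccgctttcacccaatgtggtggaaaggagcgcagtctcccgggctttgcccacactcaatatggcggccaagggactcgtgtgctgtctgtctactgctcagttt
Mcm6: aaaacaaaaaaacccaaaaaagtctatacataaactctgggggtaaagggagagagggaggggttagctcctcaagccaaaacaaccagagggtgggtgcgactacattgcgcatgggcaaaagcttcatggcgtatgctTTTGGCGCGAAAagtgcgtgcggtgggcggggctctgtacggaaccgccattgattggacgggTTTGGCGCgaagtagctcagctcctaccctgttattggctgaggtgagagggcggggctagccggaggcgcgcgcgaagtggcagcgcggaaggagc

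The sliding clamp and its partners held the largest difference. Pclaf encodes a small protein that binds Pcna at the replication fork. Pclaf stood at 159, 172, 217, 45.8 and 73.5 CPM in CD36-positive libraries 1, 2, 3, 4 and 7, against 45.4, 41.8, 21.1, 29.1 and 25.2 CPM in CD36-negative libraries 1, 2, 4, 7 and 8. The groups did not overlap, but CD36-positive library 4 exceeded CD36-negative library 1 only narrowly, and the 3 CD36-positive libraries of high Y-linked level were the highest of all. Levels averaged 133 ± 71.5 CPM in the CD36-positive libraries, against 32.5 ± 10.6 CPM in the CD36-negative ones (SD, n = 5 each). The log2 fold change was 2.04 (SE 0.36, edgeR adjusted p = 0.00154). Pclaf was the one gene past the test in each of the 24 other fits, with log2 fold changes of 1.25 to 2.25.

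Pcna, the ring that tethers polymerases to DNA, stood at 292, 260, 287, 124 and 186 CPM in CD36-positive libraries, against 141, 131, 99.9, 92.4 and 111 CPM in CD36-negative libraries. Only CD36-positive library 4 fell inside the CD36-negative range. Its log2 fold change was 1.00 (SE 0.23, edgeR adjusted p = 0.0111). Per kilobase of exon, Pcna had the highest level of the 46 genes, 151 CPM per kb in CD36-positive and 75.8 CPM per kb in CD36-negative libraries on average; Pole had the lowest CD36-positive level, 1.16 CPM per kb, beside 0.96 CPM per kb in CD36-negative libraries. The 5 subunits of replication factor C, which opens the clamp and loads it, did not pass. Their log2 fold changes were 0.83 for Rfc3, 0.82 for Rfc4, 0.35 for Rfc1, and 0.05 each for Rfc2 and Rfc5. Rfc3 reached 58.1 CPM in CD36-positive library 2 and 16.6 to 33.6 CPM in the other CD36-positive libraries, against 12 to 23.7 CPM in CD36-negative libraries.

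Nucleotide supply was the role in which most genes passed, 4 of 5, with a median log2 fold change of 1.14. Rrm1 encodes the large subunit of ribonucleotide reductase, the enzyme that makes deoxynucleotides. Rrm1 stood at 148, 144, 114, 60.8 and 120 CPM in CD36-positive libraries, against 78.3, 37.7, 35.4, 59.7 and 56.1 CPM in CD36-negative libraries, and only CD36-positive library 4 lay below the highest CD36-negative library (log2 fold change 1.14, SE 0.26, edgeR adjusted p = 0.0128). Rrm2, the small subunit whose level limits the enzyme in S phase, stood at 58.4, 117, 111, 29.1 and 83.2 CPM in CD36-positive libraries, against 49.8, 25.8, 16.5, 51.8 and 24.2 CPM in CD36-negative libraries. CD36-positive library 4 fell among the CD36-negative libraries, of which 1 and 7 were the highest. The log2 fold change of Rrm2 was 1.25 (SE 0.37), and its edgeR adjusted p of 0.0466 was the closest of the 7 to the threshold; 11 of 24 other fits kept it past the test.

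Tyms, thymidylate synthase, which makes thymidine monophosphate, stood at 201, 132, 208, 56.9 and 58.6 CPM in CD36-positive libraries, against 66.2, 59.3, 34.6, 38.8 and 28.6 CPM in CD36-negative libraries. CD36-positive libraries 1, 2 and 3 were far above the rest, whereas libraries 4 and 7 lay within the CD36-negative range. Its log2 fold change was 1.52 (SE 0.36, edgeR adjusted p = 0.0138), and it was 0.84 (edgeR adjusted p = 0.15, the highest of the other fits, which began at 4.7e-05) without CD36-positive libraries 1 and 3. Tk1, thymidine kinase, the salvage enzyme of S phase, stood at 57.5, 65.0, 60.6, 25.7 and 59.3 CPM in CD36-positive libraries, against 36.3, 21.7, 17.2, 28.6 and 26.9 CPM in CD36-negative libraries. The other CD36-positive libraries lay close together, and library 4 lay far below them, inside the CD36-negative range (log2 fold change 1.04, SE 0.27, edgeR adjusted p = 0.0252). Tk1 passed in 13 of the 24 other fits, Tyms in 20, Rrm1 in 21 and Pcna in 20. Dut, which removes dUTP from the nucleotide pool, did not pass, at 33.7, 56.0, 47.1, 21.7 and 36.6 CPM in CD36-positive libraries, against 39.5, 38.8, 21.3, 26.8 and 30.2 CPM in CD36-negative libraries, which overlapped (log2 fold change 0.32, 95% confidence interval -0.25 to 0.88).

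**Figure D3:**
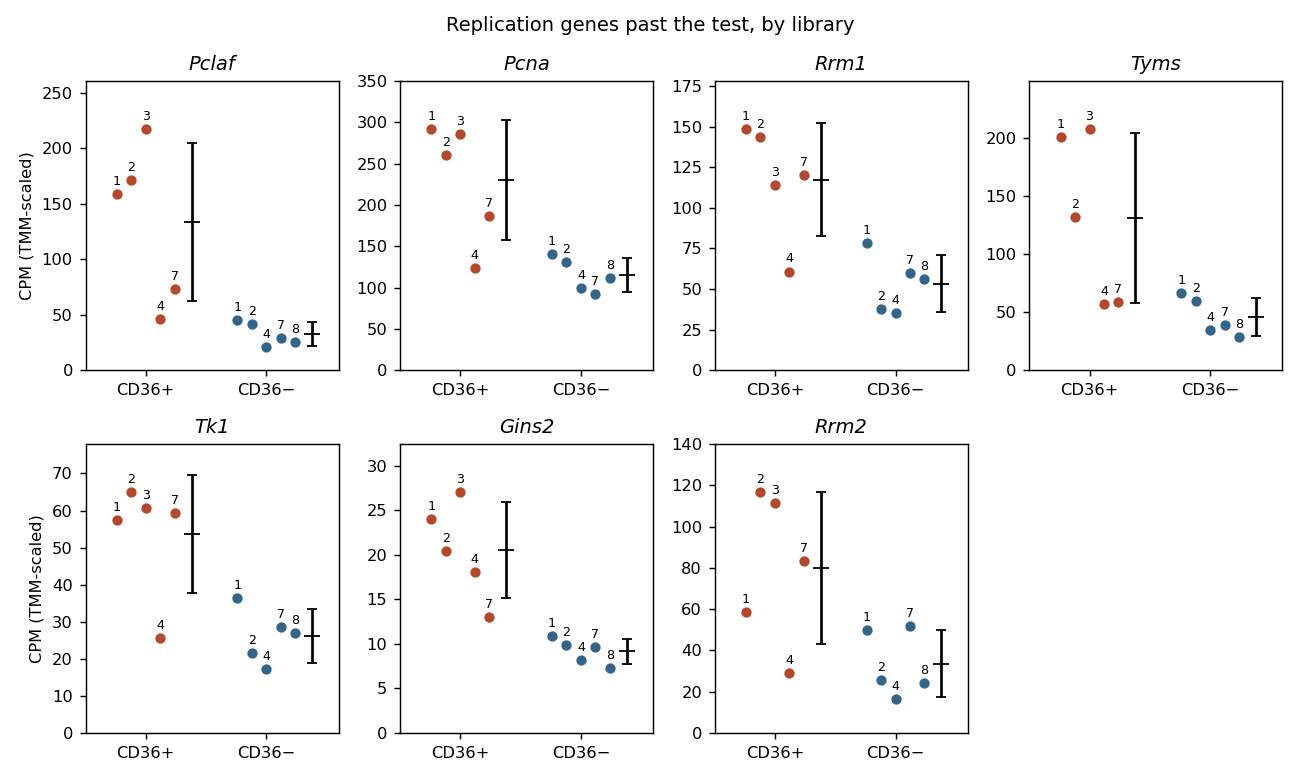
Level of the 7 genes past the test in each library (points, numbered by library; CD36-positive in red, CD36-negative in blue), in TMM-scaled CPM from 0, with bars for the mean and SD of 5 libraries. CD36-positive library 4 lies at or near the CD36-negative libraries in every panel except that of Gins2.

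Helicase activation had 1 gene of 6 past the test, Gins2, a subunit of the GINS complex that holds the helicase in its active form. Gins2 stood at 24.0, 20.4, 27.1, 18.1 and 13 CPM in CD36-positive libraries, against 10.9, 9.87, 8.18, 9.60 and 7.27 CPM in CD36-negative libraries. The groups did not overlap, and here library 7 and not library 4 was the lowest CD36-positive one (log2 fold change 1.16, SE 0.30, edgeR adjusted p = 0.0262). Gins2 passed in 12 of the 24 other fits; its edgeR adjusted p was 0.054 with no filter on low counts and 0.051 after thinning, and the adjusted p over all these fits ran from 0.0045 to 0.33. Gins1, another subunit, stood at 22.5, 32.4, 22.4, 19.4 and 26.8 CPM in CD36-positive libraries, against 14.2, 19.1, 14.7, 9.60 and 16.8 CPM in CD36-negative libraries. Its groups did not overlap either, although the lowest CD36-positive and the highest CD36-negative library were close, and it did not pass (log2 fold change 0.73, edgeR adjusted p = 0.121). The other subunits had negative estimates. Gins3 stood at 8.0, 8.13, 9.31, 10.0 and 8.95 CPM in CD36-positive libraries, against 8.32, 21.1, 14.4, 13.7 and 21.4 CPM in CD36-negative libraries, with a log2 fold change of -0.83 (interval -1.55 to -0.11, edgeR adjusted p = 0.164). It was the 1 gene lower at an unadjusted p under 0.05, and CD36-negative library 1 was the only one of its group inside the CD36-positive range. For Gins4 it was -0.15 (interval -0.62 to 0.32). Mcm10 and Cdc45, which join the helicase at the origin, had log2 fold changes of 1.02 (interval 0.06 to 1.98) and 0.99 (interval 0.12 to 1.86) and did not pass.

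The licensing genes had 0 of 8 past the edgeR test, also at an unadjusted p under 0.05 and with DESeq2, and a median log2 fold change of 0.29. Mcm6, the licensing gene of highest mean level in CPM and a subunit of the helicase ring, stood at 75.2, 150, 114, 72.1 and 147 CPM in CD36-positive libraries, against 119, 63.0, 81.7, 88.0 and 65.4 CPM in CD36-negative libraries. CD36-positive libraries 2 and 7 were the highest, and libraries 1, 3 and 4 lay inside the CD36-negative range (log2 fold change 0.42, interval -0.10 to 0.94, edgeR adjusted p = 0.35). The other 5 ring subunits, Mcm2, Mcm3, Mcm4, Mcm5 and Mcm7, had log2 fold changes of 0.32, 0.42, 0.19, 0.26 and 0.26. CD36-negative library 1 was the highest of its group for each of the 6 ring subunits. Mcm4, for instance, stood at 82.6 CPM in CD36-negative library 1 and at 30.0 to 35.9 CPM in the other 4 CD36-negative libraries, beside 24.1 to 71.4 CPM in CD36-positive libraries. The licensing factors Cdc6 and Cdt1 had log2 fold changes of 0.67 (interval -0.37 to 1.71) and -0.11 (interval -0.75 to 0.52). Per kilobase of exon, the mean levels of the 6 ring subunits ran from 12.4 to 34.3 CPM per kb in CD36-positive libraries and from 9.95 to 25.7 CPM per kb in CD36-negative libraries.

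Of the 7 polymerase and primase genes 0 passed (edgeR), with 2 at an unadjusted p under 0.05 and 1 passing with DESeq2, and their log2 fold changes pointed both ways. Pola2, the gene of highest mean level in CPM in this role and the accessory subunit of the polymerase that starts each strand, stood at 7.82, 19.6, 31.8, 15.2 and 36.8 CPM in CD36-positive libraries, against 36.9, 20.0, 29.6, 26.3 and 25.2 CPM in CD36-negative libraries. The CD36-positive libraries spread more widely and overlapped the others, with the lowest level in the shallowest library (log2 fold change -0.30, interval -1.04 to 0.43). Pola1, the catalytic subunit of the same polymerase, stood at 49.1, 31.6, 44.1, 11.6 and 18.9 CPM in CD36-positive libraries, against 23.7, 14.1, 10.9, 5.85 and 6.77 CPM in CD36-negative libraries. CD36-positive libraries 1, 2 and 3 lay above all CD36-negative ones, and Pola1 did not pass (log2 fold change 1.33, interval 0.43 to 2.24, edgeR adjusted p = 0.0715), but it passed in 6 of the 24 other fits. The primase subunits Prim1 and Prim2 had log2 fold changes of 1.04 and 0.74 and also did not pass. Of the genes of the polymerases that copy the bulk of both strands, Pold1 gave a log2 fold change of -0.64 (interval -1.45 to 0.17), Pold2 one of -0.28 and Pole one of 0.28. In Pold1, CD36-positive libraries 4 and 7 stood at 6.19 and 12.2 CPM and libraries 1, 2 and 3 at 21.8, 33.5 and 23.4 CPM, against 17.6 to 44.1 CPM in CD36-negative libraries. Within the libraries of low Y-linked level, Pold1 was lower in CD36-positive cells (log2 fold change -1.81, edgeR adjusted p = 0.0132).

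The genes of single-stranded DNA binding and of Okazaki fragment processing, the joining of the short pieces of the lagging strand, had 0 of 5 past the test (edgeR; 1 at an unadjusted p under 0.05, 0 with DESeq2) and a median log2 fold change of 0.46. Rpa1, the large subunit of the single-strand binding protein and the highest of this role in mean CPM, stood at 40.0, 90.9, 78.9, 97.1 and 85.4 CPM in CD36-positive libraries, against 95, 70.1, 63.3, 105 and 93.5 CPM in CD36-negative libraries. Only CD36-positive library 1, the shallowest, lay below the CD36-negative range (log2 fold change -0.12, interval -0.61 to 0.38). Rpa2 and Rpa3, the smaller subunits, had log2 fold changes of 0.68 (interval 0.12 to 1.24) and 0.62 (interval -0.07 to 1.32). Lig1, the ligase that seals the fragments, and Fen1, the nuclease that trims them, had log2 fold changes of 0.46 and 0.43.

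The 4 genes of chromatin and histone messenger RNA also stayed short of the threshold (edgeR; 2 at an unadjusted p under 0.05, 0 with DESeq2), with a median log2 fold change of 0.66. Slbp, which binds the stem-loop of histone messenger RNA, had the highest mean level of this role in CPM and stood at 105, 151, 181, 101 and 137 CPM in CD36-positive libraries, against 127, 98.1, 80.0, 92.0 and 96.5 CPM in CD36-negative libraries. CD36-positive libraries 1 and 4 lay below CD36-negative library 1 but above the other 4 (log2 fold change 0.45, interval 0.03 to 0.88, edgeR adjusted p = 0.195). Chaf1a and Chaf1b, subunits of the factor that places histones on new DNA, had log2 fold changes of 0.94 (interval 0.14 to 1.73) and 0.77 (interval -0.16 to 1.69). Uhrf1, which directs DNA methylation to new strands, had one of 0.56 (interval -0.25 to 1.38).

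The 4 genes of S phase entry and checkpoint had the highest median log2 fold change of the 8 roles, 1.18, with 0 of 4 past the test (edgeR; 3 at an unadjusted p under 0.05, 1 with DESeq2). E2f1, the transcription factor gene and the highest of this role in mean CPM, stood at 19.2, 32.4, 21.8, 23.7 and 27.9 CPM in CD36-positive libraries, against 16.2, 12.6, 16.4, 14.7 and 18.4 CPM in CD36-negative libraries. The groups did not overlap (log2 fold change 0.68, interval 0.14 to 1.21, edgeR adjusted p = 0.124). Ccne2, one of the E cyclins that drive entry into S phase, stood at 25.1, 22.5, 12.6, 2.70 and 8.64 CPM in CD36-positive libraries, against 6.78, 0.50, 6.95, 3.13 and 2.67 CPM in CD36-negative libraries (log2 fold change 1.83, interval 0.46 to 3.19, edgeR adjusted p = 0.103). Ccne1, the other E cyclin, stood at 18.2, 35.3, 20.1, 0.23 and 23.3 CPM in CD36-positive libraries, against 14.1, 8.66, 5.93, 5.22 and 7.60 CPM in CD36-negative libraries. In both cyclin genes CD36-positive library 4 was the exception: 4 of its group lay above every CD36-negative library, and the Ccne1 value there was 2 counts, under a floor of 3 counts (0.34 CPM; counting error only). The log2 fold change of Ccne1 was 1.23 (interval -0.15 to 2.60). Clspn, a checkpoint adaptor at the fork, had one of 1.14 (interval 0.28 to 2.01, edgeR adjusted p = 0.107).

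Further genes of the same process were read from lists of named genes. Among all genes tested, edgeR called 2.61% higher and 4.74% lower. Of 46 other replication genes, 3 were higher and 0 lower (edgeR; 14 and 1 at an unadjusted p under 0.05, 7 and 0 with DESeq2), with a median log2 fold change of 0.44. Dck, the kinase that salvages deoxycytidine, stood at 147, 98.8, 126, 143 and 105 CPM in CD36-positive libraries, against 64.9, 40.1, 49.8, 61.1 and 59.8 CPM in CD36-negative libraries. The groups were far apart, and CD36-positive library 4 was here among the highest (log2 fold change 1.17, edgeR adjusted p = 0.000992). Esco2, which acetylates cohesin in S phase, and Orc6, a subunit of the origin recognition complex, were higher by log2 fold changes of 1.43 and 1.23 (edgeR adjusted p = 0.0266 and 0.0339). Of 27 tested genes of the control of G1 and S phase, 2 were higher and 2 lower (edgeR). At an unadjusted p under 0.05 of edgeR 9 were higher and 3 lower, and with DESeq2 4 and 2. Ccna2, the cyclin of S phase and G2, and E2f8, a repressor of the E2F family, were higher (1.15 and 1.25, edgeR). The D cyclins Ccnd3, at 28.5 to 36.3 CPM in CD36-positive libraries, against 118 to 165 CPM in CD36-negative ones, and Ccnd2, at 24.9 to 97.1 CPM in CD36-positive libraries and 136 to 304 CPM in CD36-negative ones, were lower (log2 fold changes -1.95 and -1.77, edgeR), with no overlap in either gene. Of 24 genes of the replication checkpoint and fork repair, 0 passed (edgeR; 5 at an unadjusted p under 0.05, 0 with DESeq2), and their median log2 fold change was 0.47.

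Of 14 markers of G2 and mitosis, 8 were higher and 0 lower (edgeR), beside 2.61% and 4.74% of all genes tested. At an unadjusted p under 0.05 of edgeR 10 were higher and 0 lower, and with DESeq2 9 and 0. Their median log2 fold change was 1.23. The 6 with the smallest p were Top2a, Cdk1, Birc5, Kif11, Ccnb1 and Mki67, with log2 fold changes of 1.45, 1.59, 1.16, 1.32, 1.5 and 1.37; Top2a untangles DNA, Cdk1 and Ccnb1 form the kinase of mitotic entry, and Mki67 marks dividing cells. Summed, the 14 markers held 1505, 1523, 1650, 743 and 723 CPM in CD36-positive libraries 1, 2, 3, 4 and 7, against 758, 625, 329, 543 and 515 CPM in CD36-negative libraries 1, 2, 4, 7 and 8. CD36-positive libraries 1, 2 and 3, those of high Y-linked level in this group, stood apart from the other 7. CD36-negative libraries 1 and 2, also of high Y-linked level, held the highest sums of their group. CD36-positive library 7, which was among the high libraries for the 46 replication genes, was with library 4 here. In bulk RNA of sorted cells, more cells in S phase and more of these messenger RNAs per cell cannot be told apart.

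**Figure D4:**
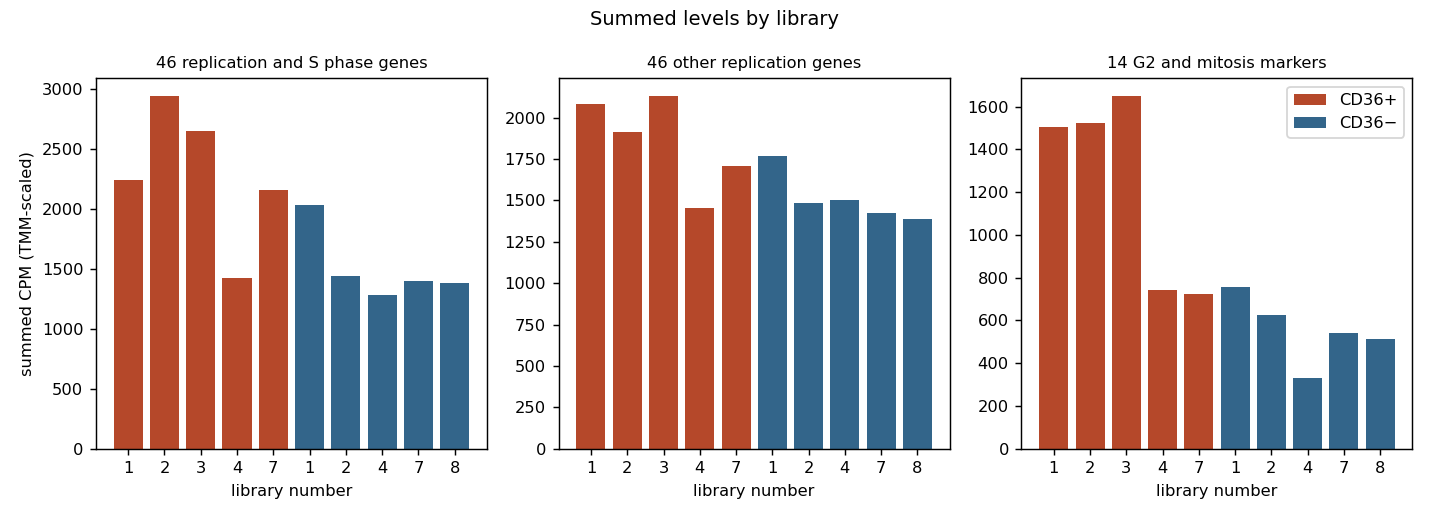
Summed TMM-scaled CPM in each library (bars from 0; CD36-positive in red, CD36-negative in blue) of the 46 replication and S phase genes, 46 other replication genes and 14 G2 and mitosis markers. CD36-positive libraries 1, 2 and 3 are high in all 3 panels, library 4 is low in all 3, and library 7 is high in the first and low in the third.

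Markers of other cells moved with the groups. Dendritic cell markers summed to 14.8 to 58.6 CPM in CD36-positive libraries, against 705 to 978 CPM in CD36-negative ones, with 9 of 9 lower. T and NK cell markers summed to 1.24 to 10.5 CPM in CD36-positive libraries, against 48.1 to 329 CPM in CD36-negative ones (6 of 6 tested lower). Neutrophil markers summed to 82.4 to 193 CPM in CD36-positive libraries, against 308 to 842 CPM in CD36-negative ones (6 of 7 tested lower). Csf3r, the 1 that did not pass, alone held 65.1 to 175 CPM in CD36-positive libraries and 97.5 to 276 CPM in CD36-negative ones. Retnlg and G0s2 were at 0 in all 5 CD36-positive libraries. Ly6g, Ngp and Camp, not tested, were at 0 in 5, 5 and 4 CD36-positive libraries and in 3, 3 and 4 CD36-negative libraries. Monocyte markers summed to 469 to 987 CPM in CD36-positive libraries, against 994 to 1823 CPM in CD36-negative ones (6 of 9 lower). The 3 that did not pass had positive log2 fold changes, 0.60 for Itgal, 0.38 for Vcan and 0.014 for Ccr2. Itgal stood at 133 to 237 CPM in CD36-positive libraries, against 103 to 124 CPM in CD36-negative ones. Ccr2 averaged 413 CPM in CD36-positive libraries and 408 CPM in CD36-negative ones. Photoreceptor markers summed to 116 to 1013 CPM in CD36-positive libraries, against 388 to 2493 CPM in CD36-negative ones (2 of 10 lower), and endothelial and pericyte markers to 3.17 to 8.13 CPM in CD36-positive libraries, against 17.9 to 28.3 CPM in CD36-negative ones (2 of 2 tested lower). Markers of border macrophages summed to 840 to 1127 CPM in CD36-positive libraries, against 320 to 874 CPM in CD36-negative ones. Ms4a7 alone held 661 to 974 CPM in CD36-positive libraries and 158 to 447 CPM in CD36-negative ones. Ms4a7 and Pf4 were higher and F13a1 lower among 6 tested. The log2 fold change was positive for only 2 of the 6, with a median of -0.90. The 2 tested B cell markers and the 4 of Müller glia and astrocytes did not pass (edgeR). Haemoglobin and other erythroid genes reached 2288 CPM in CD36-positive library 3 and 758 CPM in CD36-negative library 1, and at most 23.6 CPM elsewhere. The part of these cells, and of the Y-linked level, in the difference of the replication genes was not tested.

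On GRCm38, in GENCODE coordinates, the 7 genes past the test are protein coding. Pclaf lies on chromosome 9 from 65890237 to 65903266, Pcna on chromosome 2 from 132249162 to 132253314, and Rrm1 on chromosome 7 from 102441695 to 102469771. Tyms lies on chromosome 5 from 30058202 to 30073617, Tk1 on chromosome 11 from 117815526 to 117826092, Gins2 on chromosome 8 from 120578633 to 120589304, and Rrm2 on chromosome 12 from 24708241 to 24714146. Exons of Gins2 overlap exons of Gse1 on the other strand, and those of Tk1 overlap Afmid; no source used here says whether the counting used strand. Gse1 averaged 26.7 CPM in CD36-positive libraries, against 31.8 CPM in CD36-negative ones, and Afmid averaged 12 CPM in CD36-positive libraries and 13.7 CPM in CD36-negative libraries, with log2 fold changes of -0.25 and -0.18. Tyms, Ccne2 and Rfc4 had counts that were not whole in all 10 libraries, Gins2 in 4 and Pola2 in 2, so their values are partly estimated.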

How the data were processed

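Values were the deposited expected counts (estimates, of which 91.9% were whole numbers), with no normalization. The submitters' processing notes name fastp 0.18.0, Bowtie2 2.2.8, HISAT2 2.1.0, StringTie 1.3.1 and mm10; no source used here gives the counting program. Of 22008 lines, 8 damaged and 131 repeated ones were dropped, which left 21869 genes; 27 symbols turned into dates are not reported here. Libraries carry the numbers of the description label.

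Counts were rounded, filtered with filterByExpr (minimum count 10), normalized by TMM and compared in edgeR 4.0.16 (quasi-likelihood, group as the only term; R 4.3.3), with Benjamini-Hochberg adjustment over 11596 genes. Replicates differed by more than sampling noise (chi-square per degree of freedom 23.5 to 118).

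The genes and lists were chosen with earlier results of these data known. The rule was to name all of the 46 genes past the threshold, the gene of highest mean CPM in each role without one, and at most 6 genes past it per other list; the other genes given by library were chosen after their values were seen. Alternatives used DESeq2 1.42.0 and limma 3.58.1.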

Additional observations from a re-analysis of the deposited data

Results flagged for a closer look

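In 9 of 94 groups of 5 values tested (the 46 genes and their sum in each group), the highest or lowest library lay apart. Its gap to the nearest was over 0.71 of the range. Chance gives about 1 in 20 for independent, normally distributed values. The groups share libraries and the sum holds the same genes, so the 9 cannot be judged against that rate. CD36-positive library 2 was high for Mcm2 (81.3 CPM, next 39.2) and Mcm10 (21.9 CPM, next 12.5). CD36-positive library 4 was low for Prim2 (6.19 CPM, next 22.3) and Tk1 (25.7 CPM, next 57.5). CD36-negative library 1 was high for Mcm2 (59.4 CPM, next 29.6), Mcm4 (82.6 CPM, next 35.9), Mcm5 (85.4 CPM, next 46.9) and Mcm7 (66.9 CPM, next 44.5), and for the sum of the 46 genes (2038 CPM, next 1441).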

How the results depend on the processing

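The median log2 fold change of the 46 genes stayed positive in each of the other fits, between 0.43 and 0.76, and 0 genes were lower except in the libraries of low Y-linked level. The number higher, 7, ran from 3 to 12 when single libraries were left out and was 2 without CD36-positive libraries 1 and 3. With single libraries left out, the shares were 6.52% to 26.1%, against 1.12% to 3.19% of all genes tested. The number was 1 at an adjusted p of 0.01 (edgeR), for which no share over all genes was worked out. DESeq2 size factors, filters, thinning to the shallowest library, covariates, the DESeq2 Wald test and limma voom gave 6 to 9. In those fits the shares were 13% to 19.6%, against 1.97% to 4.6% of all genes tested. Chosen after seeing the data, fits within the libraries of high and of low Y-linked level gave 2 and 1 higher, and 0 and 1 lower. The number higher of the 46 other replication genes, 3, ran from 1 (without CD36-positive library 3, CD36-negative library 4 or CD36-negative library 8) to 8 (without CD36-positive library 4). It was 6 with no filter, 6 with a covariate for the Y-linked level, 7 with the DESeq2 Wald test, 1 at 0.01, and 0 and 1 in the libraries of high and of low Y-linked level.

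Correlations of same-numbered libraries were weak, 0.029 to 0.13 by description and -0.022 to 0.13 by title. They cannot decide whether shared numbers mark paired samples. By description, libraries 1 and 2 had a high Y-linked level in both groups, and libraries 4 and 7 a low one in both. With the description numbers as a replicate block, over 8 libraries, 4 of the 46 genes were higher (8.7%, against 1.56% of all genes tested). Of the other replication genes, 1 was higher. The same 8 libraries with no block, added after seeing the data, gave 2 of the 46 (4.35%, against 1.25%) and 1 other. The title numbers as a block gave 6 of the 46 (13%, against 2.34%).

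Signs turned only for genes that did not pass. With the description block, the log2 fold changes were -0.010 for Pole, -0.079 for Rfc2 and -0.023 for Rfc5. In the same libraries unblocked, they were -0.040 for Mcm4, -0.11 for Pole and -0.039 for Rfc2. Without CD36-positive libraries 1 and 3, they were -0.11 for Mcm4, 0.024 for Gins4, 0.069 for Pold2 and 0.087 for Rpa1. In the libraries of high Y-linked level, they were -0.023 for Mcm4, -0.052 for Mcm5, -0.56 for Pole, -0.23 for Rfc2 and -0.36 for Rfc5. In those of low level, they were 0.046 for Cdt1, 0.068 for Gins4 and 0.066 for Rpa1. Rfc5 was at -0.028 after thinning and -0.0024 with detected genes as a covariate. Without single libraries, Cdt1 ran from -0.34 to 0.047, Mcm2 from -0.084 to 0.62, Rfc2 from -0.15 to 0.16, Rfc5 from -0.060 to 0.21 and Rpa1 from -0.23 to 0.034. The cause was not tested.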
